A study of Homo sapiens with 6 samples.

Results

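The ERBB family of growth factor receptors, a set of their ligands and the receptor inhibitor ERRFI1 were examined in WM164 melanoma cells with and without long exposure to a BRAF inhibitor. The set named 10 genes, of which 9 had a probe set annotated to that gene symbol alone, out of 18417 genes measured. They are the receptors EGFR, ERBB2, ERBB3 and ERBB4, the ligands NRG1, NRG3, HBEGF and EREG, and ERRFI1, which is neither a receptor nor a ligand. AREG was not analysed here. A gene with several probe sets was represented by its brightest one.

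WM164 is an established human line from a lymph node metastasis of a melanoma with mutant BRAF. The 3 Parent samples received the vehicle DMSO. The 3 IDTC samples (induced drug tolerant cells) received PLX4032, also known as vemurafenib, at 500 nM over 16 days with the medium renewed at intervals. Both groups are cultures of this 1 line, RNA was isolated from each culture on its own, and nothing in the labels says how long DMSO was given or whether the cultures came from separate experiments. The p-values therefore measure the spread between these samples, which may be technical.

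ERBB receptors are membrane tyrosine kinases that pair up when a ligand binds and then signal through RAS and PI3K. EGFR binds EGF, TGFA, amphiregulin and other EGF-type ligands, HBEGF and EREG bind EGFR and ERBB4, and neuregulins bind ERBB3 or ERBB4. ERBB2 has no known soluble ligand and acts as the preferred partner of the others, while ERBB3 has little kinase activity of its own and recruits PI3K. In the neural crest lineage from which melanocytes arise, neuregulin signalling through ERBB3 is the best known branch.

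Expression is given as log2 values on the authors' RMA scale, so a difference of 1 is a 2-fold change. Results are levels of 1 gene on each array and differences of that gene between groups. Brightness across probe sets was used to choose probe sets, to filter dim genes and to choose 2 uncalled markers, and mean levels over marker lists are given to set arrays side by side. The fold change of a weakly expressed gene is likely understated on such arrays, and a lower value cannot tell fewer expressing cells from less RNA per cell. Detection calls were not part of the table, so background cannot be told from weak expression. Over all genes, arrays correlated at r = 0.995 to 0.998 within a group and at r = 0.953 to 0.957 across the groups.

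Of the 9 genes, 7 passed the test (limma, with p adjusted by Benjamini-Hochberg over every gene measured and a threshold of 0.05), where 46.6% of all genes did. Among the 11050 genes left once the dimmest 40% were removed, 69.2% passed. ERBB2, ERBB3, ERBB4 and NRG3 rose in the drug-tolerant cells, a direction taken by 21.7% of all genes. EGFR, HBEGF and ERRFI1 fell, as did 24.9% of all genes. NRG1 and EREG did not pass. The largest differences were those of ERRFI1 (3.95-fold lower), NRG3 (2.69-fold higher) and HBEGF (2.62-fold lower), and these 3 were the members called at 2-fold or more, against 9.21% of all genes. The groups did not overlap for the 7 called genes, nor for 54.1% of all genes. The median log2 fold change of the 9 genes was 0.01 and that of all genes -0.01.

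The bases before the annotated start are printed for the 3 members that changed by 2-fold or more, for ERBB4 and for the second start of EGFR, so that the genes that rose and fell can be read side by side. They come from the RefSeq promoter table (build GRCh38.p14), which held windows for 8 of the 10 genes, with a second start for EGFR and NRG3. ERBB3 and NRG1 had none. Each run covers the 250 bases before the start and ends at the last base before it, written 5′ to 3′ on the strand of the gene, and capitals mark matches to the motifs described below.
ERRFI1 (chr1:8026310-8026559, minus strand): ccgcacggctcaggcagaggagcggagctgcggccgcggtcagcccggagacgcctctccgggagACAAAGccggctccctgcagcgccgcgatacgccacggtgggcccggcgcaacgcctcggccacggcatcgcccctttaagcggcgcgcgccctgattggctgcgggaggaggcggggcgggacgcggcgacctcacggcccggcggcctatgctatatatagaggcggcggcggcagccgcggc
HBEGF (chr5:140346604-140346853, minus strand): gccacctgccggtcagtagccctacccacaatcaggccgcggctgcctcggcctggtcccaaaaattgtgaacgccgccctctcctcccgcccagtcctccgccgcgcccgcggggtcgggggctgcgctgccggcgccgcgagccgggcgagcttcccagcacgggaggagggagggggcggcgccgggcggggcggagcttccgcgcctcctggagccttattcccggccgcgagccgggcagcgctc
NRG3 (chr10:81874944-81875193, plus strand): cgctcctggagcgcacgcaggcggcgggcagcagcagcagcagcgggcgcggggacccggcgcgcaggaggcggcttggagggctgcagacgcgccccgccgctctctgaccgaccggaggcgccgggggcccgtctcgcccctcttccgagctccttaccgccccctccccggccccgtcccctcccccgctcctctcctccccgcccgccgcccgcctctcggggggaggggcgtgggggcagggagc
ERBB4 (chr2:212538803-212539052, minus strand): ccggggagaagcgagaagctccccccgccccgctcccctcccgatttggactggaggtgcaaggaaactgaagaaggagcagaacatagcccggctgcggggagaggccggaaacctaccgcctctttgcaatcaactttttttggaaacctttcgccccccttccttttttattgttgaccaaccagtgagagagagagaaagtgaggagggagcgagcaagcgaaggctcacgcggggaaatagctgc
EGFR second start (chr7:55109589-55109838, plus strand): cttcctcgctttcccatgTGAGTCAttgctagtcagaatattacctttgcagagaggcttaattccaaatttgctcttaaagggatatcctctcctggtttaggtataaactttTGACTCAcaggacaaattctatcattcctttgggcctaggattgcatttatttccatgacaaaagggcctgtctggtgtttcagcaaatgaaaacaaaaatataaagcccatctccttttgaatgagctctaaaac

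The windows of all members in the table were searched on both strands. The motifs were TGANTCA (a loose form of the AP-1 motif) and TGACGTCA (the cyclic AMP response element). Also searched were ACAAAG and ACAATG (SOX motifs) and GTAAACA (a forkhead motif). N stands for any base, so matches to TGANTCA can differ at their centre, and the share of promoters with TGANTCA counts any centre base. No motif here is contained in another. The window of the second EGFR start held TGAGTCA 232 bases and TGACTCA 136 bases before the start, and TGANTCA was found in 6.57% of 35116 promoters of the same length. That window lies inside the EGFR gene, while the window of the first start, which is not printed above, held none of the motifs. Which EGFR start these cells use was not tested. The ERBB2 window held TGATTCA, with T at the free centre base, 222 bases before the start. Of the 250 bases of that window, 214 overlap the neighbouring gene PGAP3. The ERRFI1 window held ACAAAG 185 bases before the start, a motif present in 13.7% of promoters. AREG had TGACGTCA 65 bases before its start, as 1.65% of promoters did. No match was found in the windows of ERBB4, NRG3, HBEGF or EREG, which says only that these letters are not in those windows.

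G and C made up 75.2% of the ERRFI1 window, 76.4% of the HBEGF window, 80.8% of the NRG3 window at its first start and 73.6% of the EGFR window at its first start. The upper quartile over all promoters was 68.0%, so these lay above it. Of these genes NRG3 rose, while ERRFI1, HBEGF and EGFR fell. The window of ERBB2, which rose, had 65.6%, below that quartile. The ERBB4 window had 57.2%, near the median of 58.0%, and the second EGFR start had 38.8%, below the lower quartile of 46.4%.

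**Figure D1:**
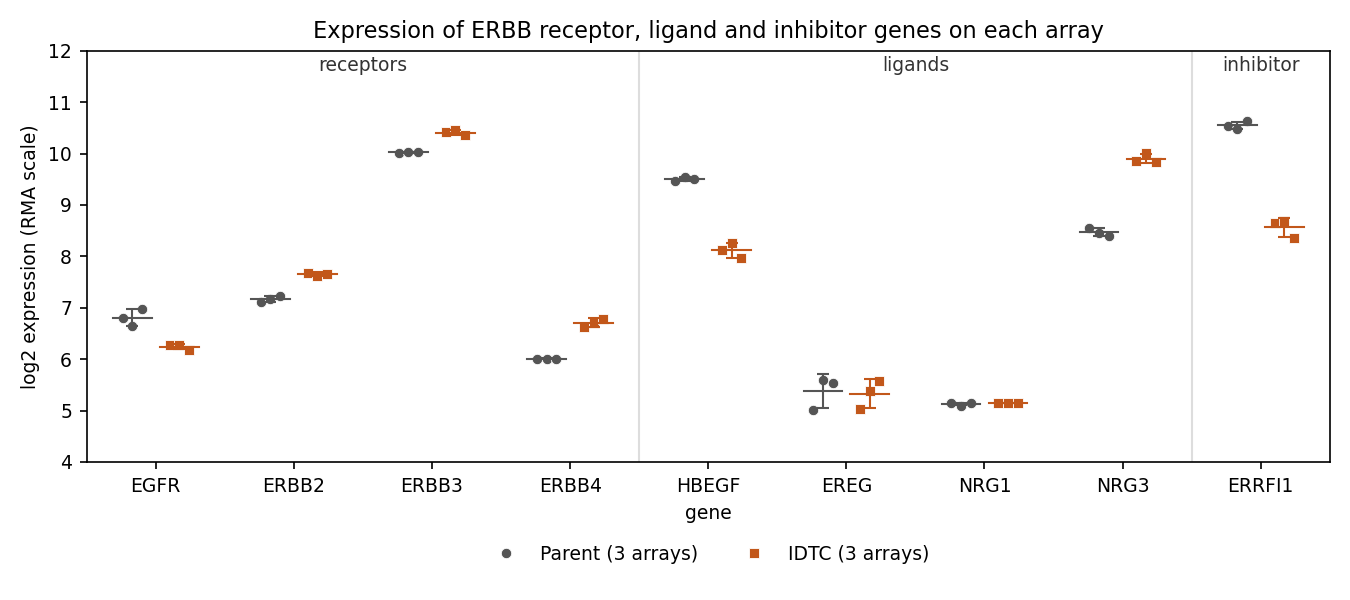
Log2 expression (vertical axis, RMA scale) of the 9 genes on each of 3 Parent arrays (grey circles) and 3 IDTC arrays (orange squares), with horizontal lines for means and bars for SD. The groups lie apart for EGFR, ERBB2, ERBB3, ERBB4, HBEGF, NRG3 and ERRFI1 and share their range for EREG and NRG1.

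Among the receptors, EGFR was the member that fell. Its level was 6.80, 6.65 and 6.97 on the Parent arrays and 6.28, 6.28 and 6.18 on the IDTC arrays. Every IDTC array lay below every Parent array. The Parent arrays were the more spread out, while IDTC 1 and IDTC 2 held the same value. The IDTC levels lay near the array medians over all probe sets, 6.25 to 6.36, and background cannot be told from weak expression there. The means were 6.81 ± 0.16 (SD, n = 3) and 6.25 ± 0.06 (SD, n = 3), a log2 fold change of -0.56 ± 0.09 (SE) or a 1.48-fold decrease (limma adjusted p = 0.00133).

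ERBB2, the partner receptor without a ligand of its own, moved the other way. It stood at 7.10, 7.17 and 7.23 in Parent cells and at 7.68, 7.61 and 7.65 in IDTC cells. All IDTC arrays were higher, with a gap of 0.38 between the nearest arrays of the groups. The log2 fold change was 0.48 ± 0.06 (SE), a 1.40-fold increase (limma adjusted p = 0.000313).

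ERBB3, the neuregulin receptor that recruits PI3K, was at 10.01, 10.03 and 10.03 in Parent and at 10.42, 10.46 and 10.35 in IDTC cells. The Parent arrays lay close together, with an SD of 0.01, and Parent 2 and Parent 3 held the same value. All IDTC arrays of ERBB3 lay above the Parent arrays. Its increase was the smallest among the called members, at 0.39 ± 0.05 log2 (SE) or 1.31-fold (limma adjusted p = 0.000633), and 67.6% of all genes had a smaller absolute change.

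ERBB4, the neuregulin receptor with an active kinase, had levels of 5.99, 6.01 and 6.01 in Parent and of 6.62, 6.71 and 6.79 in IDTC cells. The groups were 0.61 apart at their nearest arrays. The log2 fold change was 0.70 ± 0.06 (SE) with a 95% interval of 0.56 to 0.84, a 1.63-fold increase (limma adjusted p = 5.18e-05). The mean of ERBB4 over the 6 arrays was 6.36, which lay just above the level that removed the dimmest 40% of genes in an alternative fit.

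Among the ligands, the neuregulin gene NRG3, whose product binds ERBB4, had the largest increase of the set. Its level was 8.56, 8.46 and 8.40 on the Parent arrays and 9.86, 10.0025 and 9.84 on the IDTC arrays. The groups were 1.29 apart at their nearest arrays, more than the range within either. The means were 8.47 ± 0.08 and 9.90 ± 0.09 (SD, n = 3 each), and the log2 fold change was 1.43 ± 0.07 (SE; limma adjusted p = 3.55e-06). It held rank 298 of 18417 genes counted from the largest rise.

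HBEGF encodes heparin-binding EGF-like growth factor, a membrane-anchored ligand of EGFR and ERBB4. It stood at 9.46, 9.54 and 9.51 in Parent cells and at 8.12, 8.26 and 7.97 in IDTC cells. All IDTC arrays were lower, by at least 1.21 between the nearest arrays. The means were 9.50 ± 0.04 and 8.12 ± 0.14 (SD, n = 3 each), and the log2 fold change was -1.39 ± 0.08 (SE; limma adjusted p = 7.19e-06), which is rank 431 from the largest fall.

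EREG, which encodes epiregulin, gave 5.00, 5.60 and 5.53 in Parent and 5.02, 5.39 and 5.57 in IDTC cells. Replicate 1 was the low array in both groups, and the ranges overlapped. The difference was -0.05 with a 95% interval of -0.50 to 0.40 (limma adjusted p = 0.864), so a change within that interval, in either direction, was not excluded. EREG lies on chromosome 4 between the ligand genes EPGN and AREG, with BTC beyond AREG. Of these neighbours, EPGN, which encodes epigen, differed by 0.27 ± 0.09 log2 (SE; limma adjusted p = 0.0455), a call kept in 6 of 13 alternative fits. BTC, which encodes betacellulin, differed by -0.01 ± 0.07 (SE; limma adjusted p = 0.920).

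NRG1 encodes the neuregulin that binds ERBB3 and ERBB4. Its probe set had 1 identical value, 5.14, on 5 of the 6 arrays and 5.09 on Parent 2. Such repetition on at least 5 arrays was seen for 41 of all genes (0.223%). The difference was 0.01 with a 95% interval of -0.10 to 0.13 (limma adjusted p = 0.836). A further, dimmer NRG1 probe set gave 5.01, 4.91 and 4.71 in Parent and 4.88, 5.10 and 5.27 in IDTC cells, and those ranges overlapped as well.

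ERRFI1 encodes MIG6, a cytoplasmic protein that binds the kinase domains of EGFR and ERBB2, blocks them and is itself induced by receptor signalling. It had the largest difference of the set. Its level was 10.54, 10.47 and 10.62 on the Parent arrays and 8.64, 8.69 and 8.36 on the IDTC arrays. The groups lay 1.78 apart at their nearest arrays, and IDTC 3 was the lowest of all. The means were 10.55 ± 0.08 and 8.57 ± 0.18 (SD, n = 3 each), with a log2 fold change of -1.98 ± 0.10 (SE; limma adjusted p = 3.55e-06). This was rank 149 of 18417 genes counted from the largest fall.

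**Figure D2:**
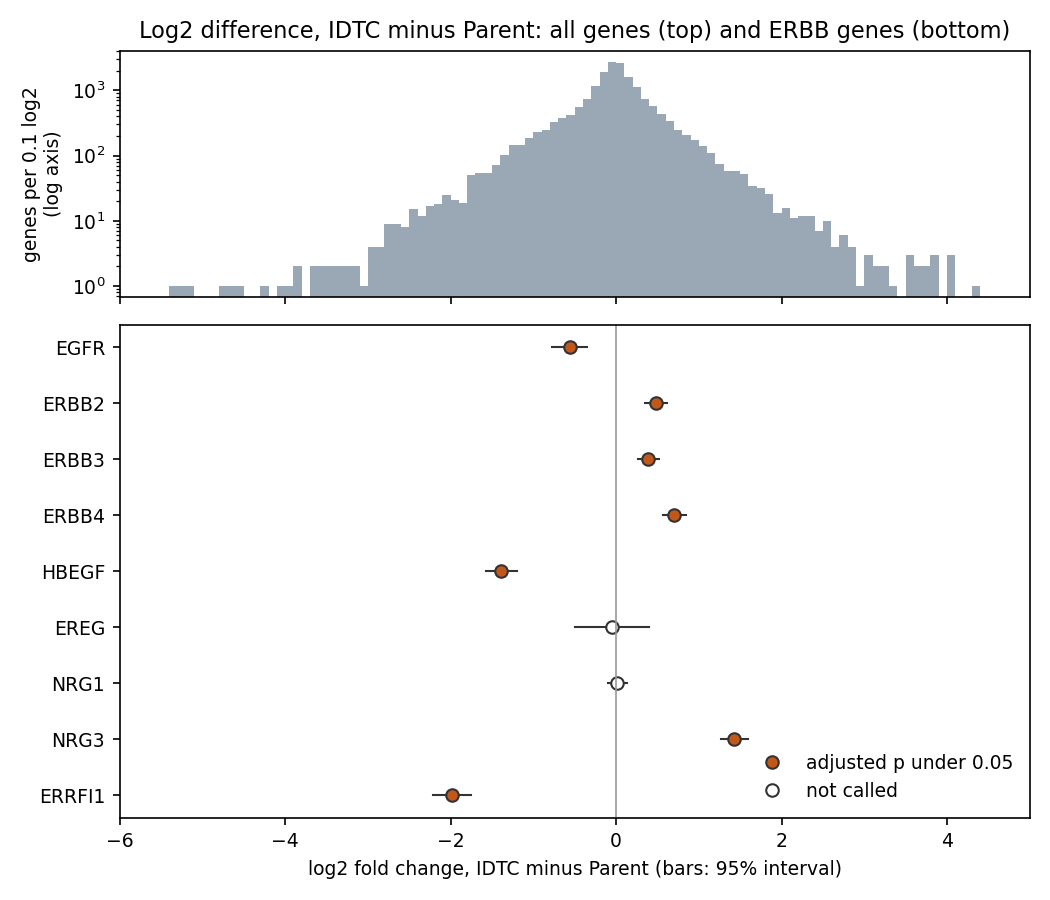
Top, number of genes (log axis) per 0.1 log2 of difference, IDTC minus Parent, over all 18417 genes. Bottom, the log2 fold change of each of the 9 genes on the same axis with its 95% interval, filled where the adjusted p was under 0.05; ERRFI1 at -1.98, HBEGF at -1.39 and NRG3 at 1.43 lie farthest from 0.

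The remaining genes of the pathway were taken from 6 lists by role, 88 genes in all, of which 83 were measured. Of these, 30 rose, 26 fell and 27 did not pass the test, so 56 were called. Of all genes, 46.6% were called (21.7% higher, 24.9% lower), and 69.2% once the dimmest 40% were removed. These shares are the background for the counts of every list below. The median log2 fold change of the 83 genes was -0.01, the same as that of all genes to this precision. The lists were written with earlier results of these data known, so the counts are descriptions.

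**Figure D3:**
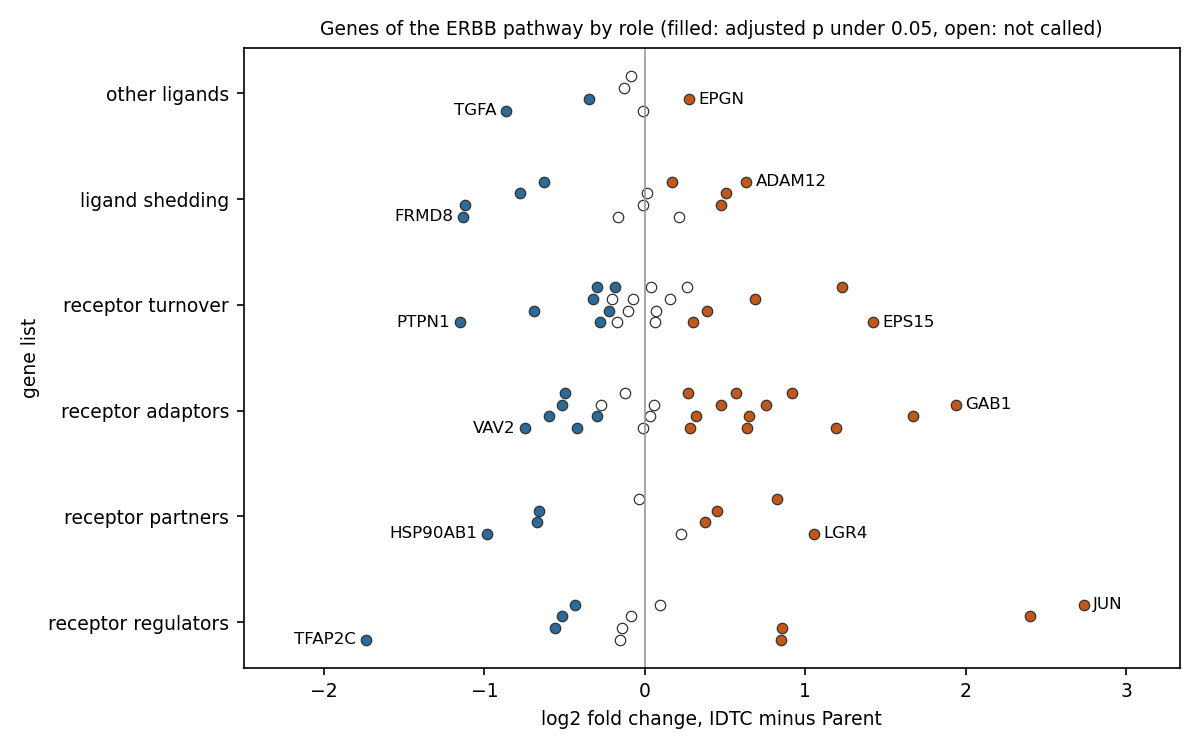
Log2 fold change, IDTC minus Parent (horizontal axis), of the genes of 6 lists of the ERBB pathway, 1 row per list and 1 point per gene, filled where the adjusted p was under 0.05 (orange higher, blue lower). The called genes farthest out in each list are named, from TFAP2C at -1.74 to JUN at 2.73, and every list has genes on both sides of 0.

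Besides the members, 6 ERBB ligand genes were measured, of which 1 rose, 2 fell and 3 did not pass (median -0.11). TGFA, which encodes the EGFR ligand transforming growth factor alpha, was at 8.48, 8.43 and 8.51 in Parent and at 7.66, 7.60 and 7.58 in IDTC cells. Its groups did not overlap, and it fell by 0.86 ± 0.05 log2 (SE) or 1.82-fold (limma adjusted p = 1.05e-05). EGF itself fell from 7.03 ± 0.09 to 6.68 ± 0.11 (SD, n = 3 each), by 0.35 ± 0.08 log2 (SE; limma adjusted p = 0.00773). The gene that rose was EPGN, described above, and it was no longer called (so 0 of the 6 rose) without Parent 2, Parent 3, IDTC 1 or IDTC 2. EPGN was among the dimmest 40% of genes, and its groups overlapped. It was at 3.45 ± 0.14 in Parent and 3.72 ± 0.12 in IDTC cells (SD, n = 3 each). The other neuregulin genes, NRG2 (-0.09 ± 0.05, SE) and NRG4 (-0.13 ± 0.07, SE), did not pass, with limma adjusted p = 0.231 and 0.141. With the members counted in, HBEGF, TGFA and EGF were the called ligand genes that were lower, and NRG3 and EPGN those that were higher.

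Most ERBB ligands are made as membrane proteins and are released by proteases, chiefly ADAM17 and ADAM10. Of 12 genes of ligand shedding, 4 rose, 4 fell and 4 did not pass (median 0.00). FRMD8 and RHBDF2 encode partners that ADAM17 needs to mature and to stay at the cell surface, and both fell by more than 2-fold. FRMD8 went from 7.90, 8.13 and 8.19 in Parent to 6.99, 6.78 and 7.05 in IDTC cells (-1.14 ± 0.10, SE; limma adjusted p = 6.83e-05). RHBDF2, which encodes iRhom2, went from 7.50, 7.44 and 7.44 to 6.36, 6.23 and 6.42 (-1.12 ± 0.07, SE; limma adjusted p = 8.44e-06). For both genes every IDTC array was below every Parent array. The related gene RHBDF1, named after its values were seen, was not lower. It was at 9.24 ± 0.08 in Parent and 9.41 ± 0.01 in IDTC cells (SD, n = 3 each). The difference was 0.17 ± 0.06 log2 (SE; limma adjusted p = 0.0481), a call kept in 5 of 14 alternative fits.

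ADAM19, a protease that can cleave neuregulin, fell by 0.78 ± 0.06 log2 (SE; limma adjusted p = 2.46e-05), and ADAM12, which can release HBEGF, rose by 0.63 ± 0.08 (SE; limma adjusted p = 0.000483). ADAM17, ADAM10 and BACE1 are given for their known roles and were chosen after their values were seen. ADAM17 was at 8.88 ± 0.02 in Parent and 8.86 ± 0.06 in IDTC cells (SD, n = 3 each), a difference of -0.01 with a 95% interval of -0.15 to 0.12 (limma adjusted p = 0.872). ADAM10, which releases EGF and betacellulin, rose by 0.48 ± 0.06 (SE; limma adjusted p = 0.000631). BACE1, which cleaves neuregulin 1, rose by 0.50 ± 0.05 (SE; limma adjusted p = 0.000109).

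Inside the cell, adaptors couple ERBB receptors to RAS and PI3K. Of 23 such genes measured, 12 rose, 6 fell and 5 did not pass (median 0.27), where 21.7% of all genes rose and 24.9% fell. The median shift was the largest of the 6 lists, with that of the receptor partners (0.22) next. CRK, PIK3CA and PIK3R2 were not analysed here. The adaptor genes that fell are named to complete the count. They were VAV2 (-0.75 log2), SHC3 (-0.60), PTPN11 (-0.52), GRB2 (-0.50), SHC1 (-0.42) and PLCG1 (-0.30), and their groups did not overlap. GAB1, a docking protein of EGFR for PI3K and the phosphatase SHP2, was at 8.56, 8.43 and 8.34 in Parent and at 10.48, 10.42 and 10.23 in IDTC cells. The groups did not overlap, and the log2 fold change was 1.94 ± 0.09 (SE; limma adjusted p = 2.55e-06). A dimmer GAB1 probe set differed by 0.25, and the mean of both gave 1.09, so the size of this rise depends on the probe set.

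PIK3R3, a regulatory subunit of PI3K, was at 9.64, 9.64 and 9.52 in Parent and at 11.37, 11.25 and 11.19 in IDTC cells, a rise of 1.67 ± 0.07 (SE; limma adjusted p = 1.67e-06). SOS2, a nucleotide exchange factor that activates RAS, rose by 1.19 ± 0.07 (SE; limma adjusted p = 1.03e-05). SHC2, an adaptor that binds phosphorylated receptors, rose by 0.91 ± 0.06 (SE; limma adjusted p = 1.31e-05). For PIK3R3, SOS2 and SHC2 all IDTC arrays lay above all Parent arrays.

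Of 21 genes of receptor turnover, 5 rose, 7 fell and 9 did not pass (median -0.07), and PTPRJ was not analysed here. Without Parent 1 the number that fell was 4. EPS15, an endocytic protein phosphorylated by EGFR, rose from 9.62 ± 0.04 to 11.04 ± 0.07 (SD, n = 3 each), by 1.42 ± 0.06 log2 (SE; limma adjusted p = 1.88e-06). CBLB, a ubiquitin ligase that targets activated receptors for degradation, rose by 1.23 ± 0.05 (SE; limma adjusted p = 2.39e-06). PTPN1 encodes the phosphatase PTP1B, which dephosphorylates EGFR, and stood at 10.69, 10.70 and 10.71 in Parent and at 9.53, 9.56 and 9.55 in IDTC cells. It fell by 1.15 ± 0.05 (SE; limma adjusted p = 1.94e-06). The ubiquitin ligase gene NEDD4 fell by 0.69 ± 0.11 (SE; limma adjusted p = 0.00122). The call of SH3KBP1, an adaptor of CBL proteins that was named after its values were seen, rests on its brighter probe set (0.30), since its dimmer one differed by -0.70.

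Of 9 partner genes measured, 4 rose, 3 fell and 2 did not pass (median 0.22), and PGRMC1 was not analysed here. The 3 that fell encode a chaperone machine of which ERBB2 is a well-known client. HSP90AB1 fell from 12.32 ± 0.02 to 11.33 ± 0.04 (SD, n = 3 each), by 0.99 ± 0.05 log2 (SE; limma adjusted p = 5.24e-06). HSP90AA1 fell by 0.68 ± 0.08 (SE; limma adjusted p = 0.000356). The remaining gene of the 3, named to complete the count, was the kinase co-chaperone CDC37 (-0.66 ± 0.05, SE; limma adjusted p = 2.84e-05). Among those that rose, the membrane receptor gene LGR4 went up by 1.05 ± 0.07 (SE; limma adjusted p = 1.16e-05) and the hyaluronan receptor gene CD44, whose product can gather HBEGF and ERBB receptors, by 0.82 ± 0.06 (SE; limma adjusted p = 2.84e-05).

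Genes of transcription factors and their cofactors, listed as possible regulators of the receptors, were split. Of 12, 4 were higher, 4 were lower and 4 did not pass (median -0.11). JUN, a subunit of AP-1, was at 6.86, 6.69 and 6.77 in Parent and at 9.66, 9.54 and 9.32 in IDTC cells, a rise of 2.73 ± 0.10 (SE; limma adjusted p = 1.00e-06). TFAP2A rose by 2.40 ± 0.05 (SE; limma adjusted p = 2.16e-07) while its paralog TFAP2C fell by 1.74 ± 0.07 (SE; limma adjusted p = 1.93e-06). FOXD3, a neural crest forkhead factor, rose from 7.53 ± 0.14 to 8.38 ± 0.06 (SD, n = 3 each), by 0.86 ± 0.08 log2 (SE; limma adjusted p = 9.32e-05). SOX10, a neural crest factor known to drive ERBB3, was at 10.78, 10.67 and 10.73 in Parent and at 11.58, 11.58 and 11.56 in IDTC cells, a rise of 0.85 ± 0.05 (SE; limma adjusted p = 1.23e-05). MITF, the melanocyte master factor, was at 11.14 ± 0.01 and 11.10 ± 0.09 (SD, n = 3 each; limma adjusted p = 0.671). Whether any of these differences bears on the receptor genes was not tested.

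The labelled cell type was compared with its markers. Of 8 melanocyte lineage markers measured (DCT was not analysed here), 6 rose, 1 fell and 1 did not pass. Among those that rose were TYRP1 (2.89 ± 0.12, SE), MLANA (1.45 ± 0.05, SE), PAX3 (1.22 ± 0.07, SE) and TYR (1.20 ± 0.08, SE). The marker that fell, named to complete the count, was S100B (-0.85 ± 0.07, SE; limma adjusted p = 3.22e-05), and its groups did not overlap. The mean level over these 8 ran from 9.90 to 9.96 on the Parent arrays and from 10.80 to 10.95 on the IDTC arrays. None of 7 keratinocyte markers measured (TP63 was not analysed here) passed in limma, with 0 at an unadjusted p under 0.05, and their mean level ran from 5.25 to 5.40 and from 5.33 to 5.47 in the same order. The brightest of them, KRT14 and KRT10, differed by 0.08 ± 0.13 and 0.05 ± 0.06 (SE). Of 8 fibroblast markers, LUM (-0.89 ± 0.14, SE) and PDGFRA (-0.28 ± 0.06, SE) fell and 6 did not pass, with mean levels of 6.10 to 6.19 and 5.97 to 6.06. The part of other cell types in the values of the ERBB genes was not tested.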

How the data were processed

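RNA from 6 WM164 cultures was hybridised to whole-transcript arrays, 3 Parent and 3 IDTC, with groups and replicate numbers read from the titles. The deposited table holds log2 expression values that the authors had normalized. Per the submitters' processing notes, Affymetrix Expression Console, Partek 6.6 and RMA were used, with no order given, and the sources used here name no genome build for the array values. Of 33297 probe sets, 19460 had 1 gene symbol in the platform annotation, 1754 had several and were left unnamed, and 19429 matched a current gene record. The brightest probe set stood for each of 18417 genes. The arrays' number limits the precision.

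IDTC was compared with Parent by limma 3.58.1 in R 4.3.3 (lmFit, eBayes, 2-sided, no covariates, no filter on dim genes), with Benjamini-Hochberg adjustment over all genes and a threshold of 0.05. Intervals are 95% from the moderated fit. The members and lists were chosen with earlier results of these data known. Named genes were all members, up to 4 called genes with the largest absolute difference from each other list (or up to the 2 brightest where none was called), and SOX10, FOXD3 and MITF. Named outside this rule, after their values were seen, were BTC, NRG2, NRG4, ADAM17, ADAM10, BACE1, SH3KBP1, CDC37 and S100B. So were RHBDF1 and the adaptor genes that fell. On simulated data for this comparison (18417 genes), the fit recovered 66% of the 50 genes given a change of 0.5 log2, 92% of those given 1 and 100% of those given 2 or 3, and it called 14 unchanged genes. The simulation changed only 50 genes per size, while 46.6% of all genes were called in the data. The adjusted threshold was thus stricter in the simulation, and its recovery rates do not carry over to these data. Alternatives changed the scaling, dim-gene filter, variance model, replicate block, probe set choice, fold threshold and the arrays included.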

Additional observations from a re-analysis of the deposited data

How the results depend on the processing

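The 7 called members kept their direction and their call under all 14 alternative fits, of which re-centring on the medians of the genes tested was chosen after seeing the data. Their log2 fold changes ranged over these from -2.04 to -1.88 for ERRFI1, -1.46 to -1.32 for HBEGF, -0.64 to -0.48 for EGFR, 1.38 to 1.50 for NRG3, 0.66 to 0.77 for ERBB4, 0.45 to 0.54 for ERBB2 and 0.36 to 0.46 for ERBB3. Requiring 2-fold as well left 3 members called instead of 7. The members that were not called changed sign. NRG1 was at -0.0032 after re-centring on the medians of all probe sets and -0.061 after quantile normalization. EREG was at 0.014 after re-centring on the medians of the genes tested, and leaving out 1 array each gave -0.24 to 0.10, with positive values without Parent 2 (0.06), Parent 3 (0.03) or IDTC 1 (0.10).

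Counts of 2 lists moved by more than 1.5 times. The count of other ligands that rose (EPGN, 1) went to 0 in 8 fits, and receptor turnover had 8 rather than 5 higher genes after quantile normalization and 4 rather than 7 lower genes without Parent 1 or after re-centring on the medians of the genes tested. The cause was not tested. With the replicate number as a block, 7 members and 8855 rather than 8588 genes were called, and no member changed its call. Deviations of same-numbered samples correlated at 0.32, -0.19 and 0.26, and those of differently numbered samples at -0.47 to 0.37. So few values cannot decide whether the numbers pair the samples, and the labels state no pairing. EREG and NRG1 were among the dimmest 40% of genes and had no value in that fit.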
